A study of Mus musculus with 20 samples.

Results

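The 10 genes described here encode the 5 subunits of the transcription factor NF-kB (Nfkb1, Nfkb2, Rel, Rela and Relb) and 5 proteins that restrain or modify it (Nfkbia, Nfkbie, Nfkbiz, Tnfaip3 and Tnip1). They were chosen by name, as peaks whose nearest gene in the authors' annotation was one of them, and make up 10 of the 19738 genes with at least 1 peak. They held 603 of the 504887 peaks in the 10 deposited lists. Peaks of different lists that overlapped by at least 1 bp were merged, which gave 103 regions of these genes among 88351 in all. The peaks come from ATAC-seq, which marks open DNA by the cuts of the transposase Tn5, in a mouse culture named ER-Hoxa9-Lys-GFP (strain C57BL/6). Every group thus carried ER-Hoxa9, a fusion of the homeobox factor Hoxa9 to an estrogen receptor domain that E2 (estradiol) switches on, and a Lys-GFP reporter, and was grown in RPMI with serum, medium conditioned with SCF (stem cell factor) and antibiotics. The 0 h group was kept with E2, and 9 further groups were taken 4, 8, 12, 24, 36, 48, 72, 96 and 120 h after E2 was washed out. Each group had 2 replicates, but 1 peak list stands for both, so there is no spread between replicates, no p-value can be given, and each difference below is a difference between single lists. Per the protocol, nuclei of 1 preparation were divided over a pair of Tn5 reactions, and the replicates may therefore be technical ones.

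NF-kB proteins bind DNA as pairs of subunits. In resting cells the IkB proteins hold most pairs in the cytoplasm. When receptors for microbial products or inflammatory cytokines are engaged, the IkB kinase complex marks IkB for destruction and the pairs enter the nucleus. Among their targets are the genes of their own inhibitors, a feedback that ends the response. In neutrophils and macrophages the pathway is known for control of cytokine genes and of survival.

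Near these genes the lists held 55 peaks with E2 and 38 at 120 h, which is 69.1% of the 0 h number, whereas all peaks together went to 42.7%. The second group of 5, called inhibitor genes here although Nfkbiz also helps NF-kB, went from 37 to 29 peaks (78.4%). Nfkbiz alone held 15 of these at 0 h and 9 at 120 h. The subunit genes went from 18 to 9 (50%). In order of time the 10 lists held 55, 64, 65, 65, 70, 71, 69, 60, 46 and 38 peaks of the 10 genes. The number was thus above that of the E2 culture in all lists from 4 to 72 h, at 116, 118, 118, 127, 129, 125 and 109% of it. In the same lists all peaks stood at 99, 99.8, 104, 113, 108, 108 and 84.8% of their 0 h number. Nfkbia alone had 5 peaks at 0 h and 10 to 13 in those lists. In bases, the peaks of the 10 genes covered 30.7 kb at 0 h and 26.8 kb at 120 h (87.6%), and all peaks 30.2 Mb and 15.4 Mb (51.1%). Fewer peaks at 120 h than at 0 h were found for 7 of the 10 genes, close to the 71.4% of all genes with a peak in either list. More peaks were found for Nfkbia and Nfkbie, 2 of 10 against 7.82% of all genes, and Relb had 1 peak in both. The percentage itself depended on list length, but that of the 10 genes lay above that of all peaks either way. Each list was also reduced to its 23620 widest peaks, as many as the 120 h list holds. The 10 genes then had 23 peaks at 0 h and 38 at 120 h (165%), while all peaks stayed at 100% by construction.

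**Figure D1:**
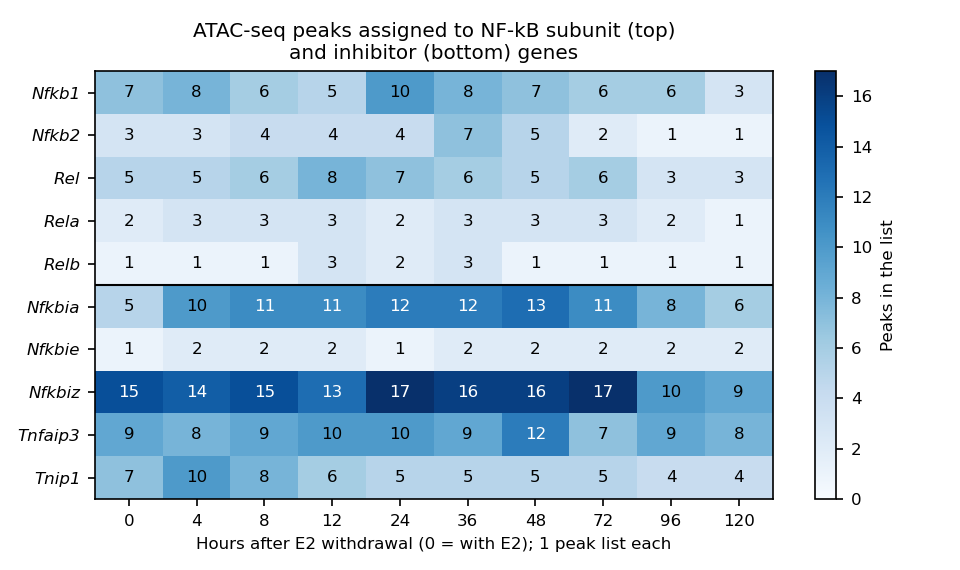
Number of ATAC-seq peaks assigned to each gene (rows) in each of the 10 lists (columns, hours after E2 withdrawal), printed in the cells and shown as colour. Nfkbia has 5 peaks at 0 h and 10 to 13 from 4 to 72 h, and Nfkbiz has the highest number, 17, at 24 and 72 h.

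As facts of the whole series, the lists up to 48 h held 54717 to 62559 peaks each, and the last 3 held 46837, 29806 and 23620. Read depth is unknown, since the lists carry no read counts, and a deposited score of 0 for every peak ranks none of them. Of 10 neutrophil marker genes, 8 had more peaks at 120 h than at 0 h (24 against 12 in sum), and 7 had a promoter peak at 120 h against 2 at 0 h. Ltf, the lactoferrin gene, had 0 and 4 peaks. The 6 progenitor genes had 49 peaks at 0 h and 16 at 120 h, all 6 with fewer. The 8 macrophage and monocyte genes had 56 and 31, the 8 B and T cell genes 18 and 3, and 6 non-blood genes 11 and 0. The part of this shift, and of the shorter late lists, in the values of the NF-kB genes was not tested.

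Promoters came first, since a promoter peak, at most 1000 bp from a transcription start site (TSS) as deposited, marks a gene whose start is open. With E2, 7 of the 10 genes had one, and at 120 h 9 had one. All 7 that had one at 0 h had one at 120 h, against 77.2% of all genes with a promoter peak at 0 h. Of all 19738 genes, 9525 had a promoter peak at 0 h and 8596 (43.6%) at 120 h. Relb and Tnfaip3 had none at 0 h and had one at 120 h, 2 of 3 genes against 12.2% of all genes without one at 0 h. Tnip1 had no promoter peak in any list, as did 39.7% of all genes. In regions rather than genes, 7 of the 9 promoter regions at 0 h were listed at 120 h, against 75.7% of all promoter regions; the exceptions were the second promoter regions of Rel and Nfkbiz.

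**Figure D2:**
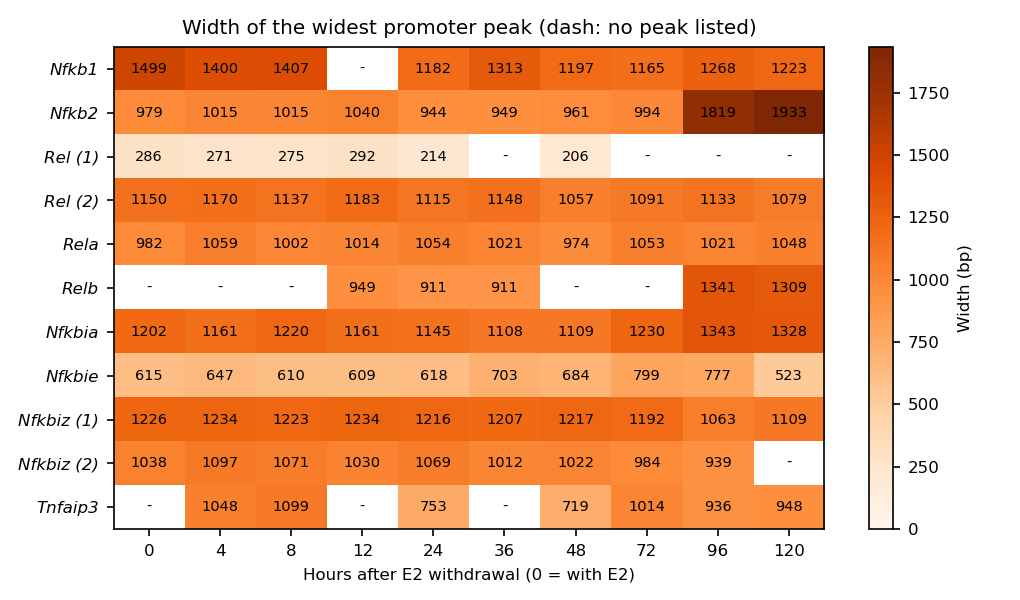
Width in bp of the widest promoter peak of each promoter region (rows, with Rel and Nfkbiz having a pair of such regions each) in each list (columns); a dash marks a list without the peak. Nfkb2 widens to 1819 bp at 96 h and 1933 bp at 120 h, and the Relb and Tnfaip3 rows are broken by lists without a peak.

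Sequences upstream of the starts were read from the RefSeq promoter table (build GRCm38.p6). Genes of this pathway are known to carry NF-kB sites in their own promoters, and the lists show at which times a listed peak covered those sites. A site that no peak of a list covered was not thereby shown to be closed. The table matched 7 of the 10 genes, with 10 windows; Nfkb1, Relb and Nfkbiz were not matched. The kappa B consensus, to which NF-kB pairs bind, was searched on both strands in the 250 bases before each start. It was found for 6 of the 7 genes, all but Rela, against 4.46% of the 27025 genes in the table. In windows these were 8 of 10 against 3.9% of 32851. The C/EBP motif TTGCNNAA was found in 0 of the 10 windows (9.56% of all), and the PU.1 motif GAGGAAGT in 1, that of Rel (2.44% of all). A match is a match of letters and does not show that a factor was bound.

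For 5 genes the bases before the start that lie outside the gene are given here 5′ to 3′ in the direction of transcription, with the kappa B matches in capitals. All 5 genes but Nfkbie lie on the minus strand. The stretches are chr12:55492648-55492797 for Nfkbia, chr17:45555550-45555699 for Nfkbie, chr11:23770970-23771119 for Rel, chr10:19015411-19015560 for Tnfaip3 and chr11:54962957-54963090 for Tnip1, each ending just before the gene.
Nfkbia: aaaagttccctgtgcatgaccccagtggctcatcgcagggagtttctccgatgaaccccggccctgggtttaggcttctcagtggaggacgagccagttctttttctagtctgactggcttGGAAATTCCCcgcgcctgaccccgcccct
Nfkbie: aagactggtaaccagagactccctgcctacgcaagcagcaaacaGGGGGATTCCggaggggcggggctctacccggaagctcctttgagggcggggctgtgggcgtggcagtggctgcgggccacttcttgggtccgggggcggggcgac
Rel: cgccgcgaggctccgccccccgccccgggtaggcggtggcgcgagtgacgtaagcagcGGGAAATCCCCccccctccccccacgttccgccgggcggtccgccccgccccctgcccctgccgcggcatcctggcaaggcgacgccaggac
Tnfaip3: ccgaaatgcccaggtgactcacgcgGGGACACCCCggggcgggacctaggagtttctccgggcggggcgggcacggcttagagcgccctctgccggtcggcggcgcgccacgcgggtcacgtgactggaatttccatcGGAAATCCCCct
Tnip1: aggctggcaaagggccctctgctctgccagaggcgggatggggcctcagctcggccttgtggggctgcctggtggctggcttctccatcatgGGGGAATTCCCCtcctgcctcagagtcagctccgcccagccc

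The match of Nfkbia (29 bases before the start), that of Nfkbie (106 bases) and that of Rel (92 bases) lay inside a listed peak in all 10 lists. Both matches of Tnfaip3, 125 and 12 bases before the start, lay inside a peak in 7 lists, those of 4, 8, 24, 48, 72, 96 and 120 h, and in none at 0, 12 and 36 h. The palindromic match of Tnip1, 58 bases before the start at chr11:54962987-54962998, lay inside no peak of any list. The nearest regions of Tnip1 began 1986 bp upstream of it and ended 1229 bp downstream of it.

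Nfkb2 has 3 starts in the table, with a kappa B match before each of them. Since these lie within the span of the gene, a stretch of 30 bases around each match is given, all on the plus strand, with the matches in capitals; the stretch at the second site opens with the last letters of the first.
Nfkb2, chr19:46304688-46304717: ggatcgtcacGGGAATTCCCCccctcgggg
Nfkb2, chr19:46304707-46304736: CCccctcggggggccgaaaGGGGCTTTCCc
Nfkb2, chr19:46305449-46305478: tccgacggcaGGAATGTCCCcacaaaagcc
Nfkb2, chr19:46305695-46305724: tggtattttcGGGACTTTCCtaagcagcac

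The first pair of Nfkb2 sites, 39 and 11 bases before the first start, lay in a peak in all 10 lists. The other two, farther into the gene, lay outside every peak at 0 h. The site at 46305459 was covered in 8 lists, all but 0 and 36 h, and the site at 46305705 in 9, all but 0 h. The peak that covered them from 4 to 72 h was assigned by the authors' annotation to the noncoding RNA gene 4833438C02Rik, which overlaps Nfkb2. At 96 and 120 h a single peak, assigned to Nfkb2, covered all 3 starts.

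Among the subunits, Nfkb1 encodes a precursor that is cut to a DNA-binding subunit without a transactivation domain, and its gene spans chr3:135584655-135691969. From the first list to the last, 7, 8, 6, 5, 10, 8, 7, 6, 6 and 3 peaks belonged to Nfkb1, most in the 24 h list and fewest in the final one. Its promoter region, chr3:135690555-135692053, measured 1499 bp with E2 and 1223 bp in the final list, and was missing only from the 12 h list. Such a break was not rare: of all promoter regions listed at 8 and 24 h, 8.24% were missing at 12 h, and of those of the 10 genes 2 of 10, the other being that of Tnfaip3. Nfkb1 held 18 regions, of which 7 stood in 1 list only. The promoter, a site in exon 13 (chr3:135607729-135608609, missing only at 72 h) and an intergenic site 39.9 kb upstream (chr3:135731308-135731662, in all 10 lists) were the 3 regions still listed at 120 h. Another 3 sites were listed at 24, 36, 48 and 72 h and at no other time: those in introns 17 and 13 (chr3:135596690-135597403 and chr3:135607085-135607575) and one 66.6 kb upstream (chr3:135757822-135758376). A site in exon 22 (chr3:135590526-135591051) was in each list up to 24 h and in none after.

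Nfkb2, whose precursor yields the subunit of the noncanonical pathway, lies at chr19:46300994-46312400. Its peaks numbered 3, 3, 4, 4, 4, 7, 5, 2, 1 and 1 in order of time, with the maximum in the 36 h list. The peak left at the end was the promoter peak. Of its 6 distal regions, 3 lay in introns of the neighbouring gene Gbf1 and 2 in intron 12 of Psd, and none was listed after 72 h. The site in exon 14 of Nfkb2 (chr19:46309098-46309381) was in every list up to 72 h.

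Rel encodes c-Rel, the subunit best known from lymphocytes, at chr11:23736847-23770969. The 10 lists gave Rel 5, 5, 6, 8, 7, 6, 5, 6, 3 and 3 peaks, so the 12 h list was the highest. The promoter region over its start (chr11:23770568-23771751) was in all 10 lists, between 1057 and 1183 bp wide. A small second one in intron 1 (chr11:23770176-23770469), 206 to 292 bp wide, was last listed at 48 h. Around 50 kb upstream the early and late lists held different sites. The site 48 kb upstream (chr11:23818672-23819192) was listed at 0, 4, 8 and 12 h and not later. The site 50.8 kb upstream (chr11:23821564-23822045) was listed from 8 h on, and that 52.5 kb upstream (chr11:23823188-23823772) from 12 h on, both to 120 h. The site 35 kb upstream (chr11:23805595-23806324) was in every list up to 72 h and in none after.

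Rela encodes the main transactivating subunit, at chr19:5637442-5648134. Across the lists Rela had 2, 3, 3, 3, 2, 3, 3, 3, 2 and 1 peaks, a narrow range. The promoter peak was in all 10 lists at 974 to 1059 bp. The site 5.22 kb upstream (chr19:5632073-5632501) was listed up to 12 h only. A site past the end of the gene, toward Sipa1 (chr19:5648430-5649930), was listed from 4 to 96 h but neither at 0 h nor at 120 h.

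Relb, the partner of the processed Nfkb2 product, lies at chr7:19606217-19629438. For Relb the lists held 1, 1, 1, 3, 2, 3, 1, 1, 1 and 1 peaks, but the lone peak was not the same in all of them. Up to 8 h, and at 48 and 72 h, this was a site in intron 3 (chr7:19618915-19619350). In the last 2 lists it was the promoter peak in region chr7:19628319-19629659, with widths of 1341 and 1309 bp. That promoter region was also in the lists of 12, 24 and 36 h, and the 5 other lists lacked it.

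The inhibitors were the larger group, with 63 regions against 40 of the subunits. Nfkbia encodes IkB alpha, an inhibitor that NF-kB itself induces, and is a small gene at chr12:55489409-55492647. In list order Nfkbia had 5, 10, 11, 11, 12, 12, 13, 11, 8 and 6 peaks. The 0 h list was thus the lowest of the 10, and its number was 5 below that of the 4 h list. A step of at least 5 more peaks from 0 to 4 h was seen for 0.126% of all genes with a peak in either list. This threshold was set after the values of Nfkbia were seen, and the share includes genes with few peaks. Against 4 h in place of 0 h, Nfkbia had 4 peaks fewer at 120 h. Among genes with at least 5 peaks at 0 h, 3.42% had as many or more at 120 h, and of the 6 such genes here Nfkbia alone did. With 5 peaks at 0 h, its lowest number, Nfkbia entered this class just at the cutoff.

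The promoter region of Nfkbia, chr12:55491561-55492949, was in every list, with widths in list order of 1202, 1161, 1220, 1161, 1145, 1108, 1109, 1230, 1343 and 1328 bp. It was widest in the last 2 lists. The 14 distal regions spread from 25.7 kb upstream to 45.6 kb downstream. The 2 in all lists lay 45.6 and 27.1 kb downstream (chr12:55446459-55447668 and chr12:55465247-55465950). Of the 5 sites that the 4 h list added, 3 were in each list up to 72 h: 6.66 and 2.6 kb upstream and 32.7 kb downstream (chr12:55498916-55499725, chr12:55495135-55495363 and chr12:55459727-55460091). The other two, 39.8 and 28.5 kb downstream, were listed at 4 h alone. The 8 h list added 3 more. Of these the site 18.6 kb downstream (chr12:55473556-55474534) and the site just past the gene's end (chr12:55488569-55489308) were in the final list, the latter after a break at 72 h. The site 26.2 kb downstream (chr12:55466238-55466660) was listed from 36 h to 120 h. All 4 upstream sites of Nfkbia, those 2.6, 6.66, 13.6 and 25.7 kb from the start, were in the 72 h list and in neither later one. The 6 peaks of the final list were the promoter and 5 sites downstream.

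**Figure D3:**
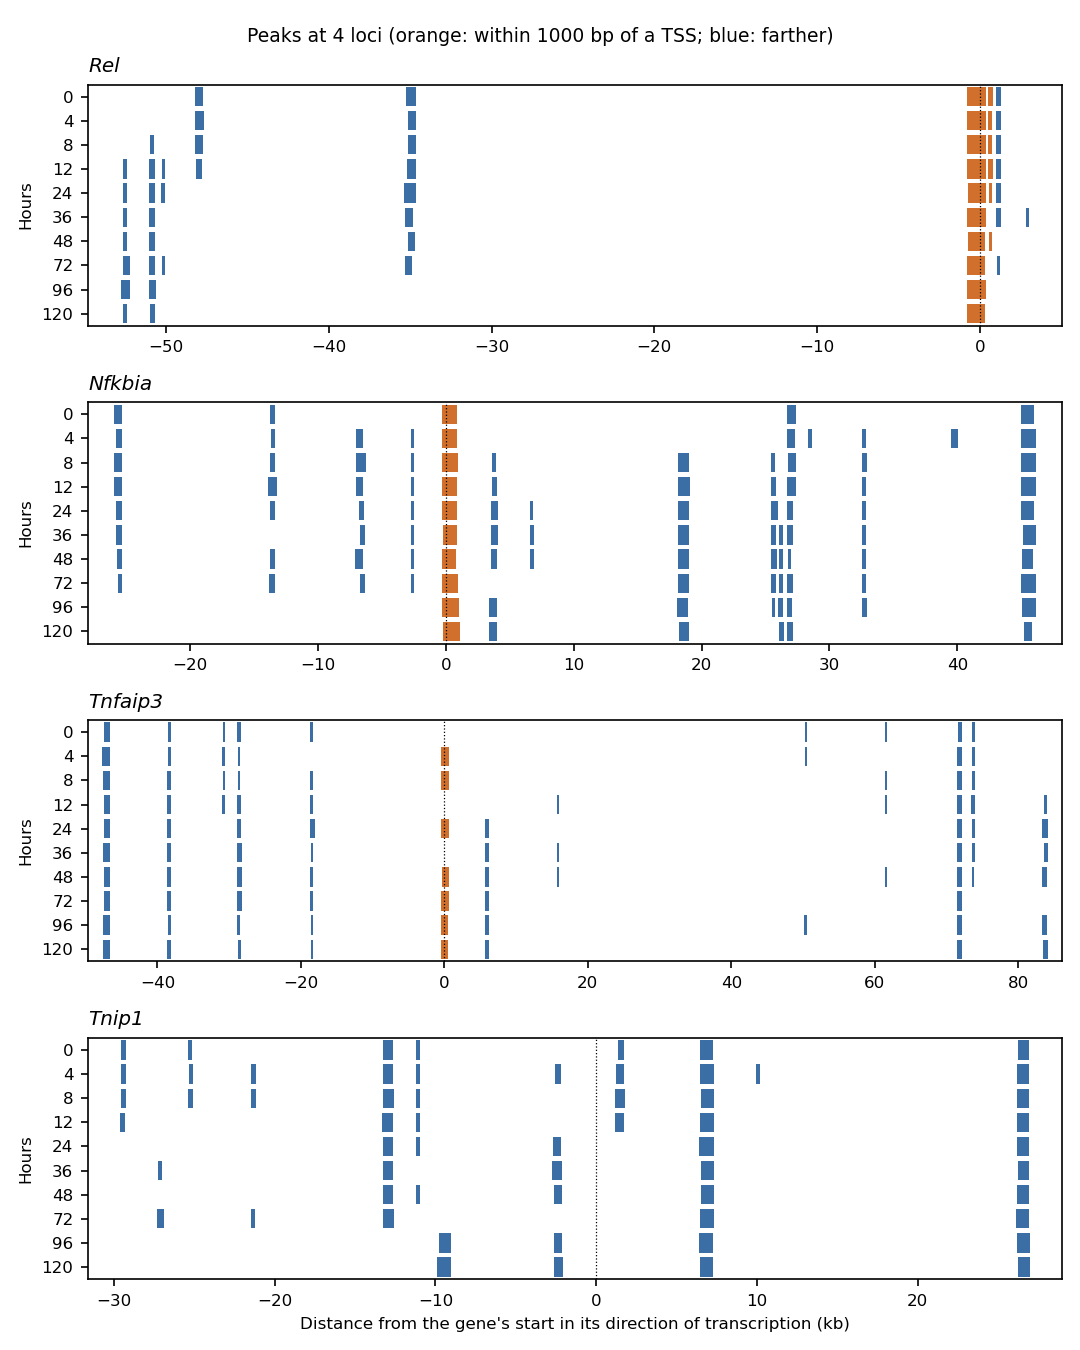
Peaks of each list (rows, 0 to 120 h from top to bottom) drawn to scale against distance in kb from the RefSeq start (dotted line) of Rel, Nfkbia, Tnfaip3 and Tnip1, negative values upstream, with promoter peaks in orange and others in blue; distances in the text are the deposited ones, to the nearest start of any transcript. At Nfkbia the upstream peaks end at 72 h while downstream peaks go on to 120 h, and at Tnip1 no peak lies at the start in any list.

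Nfkbie encodes IkB epsilon and lies at chr17:45555700-45563169. Of Nfkbie the lists held 1, 2, 2, 2, 1, 2, 2, 2, 2 and 2 peaks. The promoter peak was in all lists, 523 to 799 bp wide, with the narrowest in the final list. The other was a site in intron 1 (chr17:45556799-45557030), 1.21 kb into the gene, which the lists of 0 and 24 h lacked.

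Nfkbiz encodes IkB zeta, a nuclear IkB protein that helps NF-kB switch on a set of secondary response genes, at chr16:55811375-55838954. Nfkbiz had the most peaks of the 10 genes in every list, with 15, 14, 15, 13, 17, 16, 16, 17, 10 and 9 in order of time. It held 7 of the 21 regions of the 10 genes that were in all lists, 1 promoter and 6 distal. Of these distal sites, 5 lay on the 3′ side, 131, 123, 74.5, 67.6 and 23 kb from the TSS, and 1 upstream in an intron of Nxpe3 (chr16:55863376-55863925). The 2 promoter regions differed late in the course. The one at the internal start (chr16:55821476-55822709) was in all lists, whereas that at the upstream start (chr16:55838447-55839549) was in every list but the last, 939 bp wide at 96 h and 984 to 1097 bp before. Between 72 and 96 h 7 regions of Nfkbiz were no longer listed. Among them were the site in the 3′ UTR, 2 in intron 2 of different transcripts and 2 in intron 4 of Nxpe3. A site 158 kb from the TSS (chr16:55663927-55664659) was gained: the lists of 24 and 36 h and the last 3 held it. Of the 103 regions of the 10 genes, 26 lay over 50 kb from the TSS, a share near that of all regions (20857 of 88351). Whether such sites act on the gene they are assigned to was not tested.

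Tnfaip3 encodes a ubiquitin-editing enzyme that shuts down signals to the IkB kinase, at chr10:19000910-19015410. Peaks of Tnfaip3 numbered 9, 8, 9, 10, 10, 9, 12, 7, 9 and 8 from the first list to the last, with no steady direction. The promoter region (chr10:19014808-19015906) was absent at 0, 12 and 36 h. Its width was 1048 and 1099 bp in the lists of 4 and 8 h and 1014, 936 and 948 bp in the last 3, and in those of 24 and 48 h it was split into a pair of peaks. Thus lists with and without it alternated up to 48 h. Sites 47.2, 38.4 and 28.5 kb upstream and 68.3 kb from the TSS on the other side were in all 10 lists. A site in intron 1 (chr10:19009134-19009790) was gained at 24 h and listed to 120 h. The sites 30.8 kb upstream (chr10:19045989-19046368, last listed at 12 h) and 70.2 kb downstream (chr10:18941448-18942034, last listed at 48 h) were lost.

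Tnip1 encodes a ubiquitin-binding partner of the Tnfaip3 protein, at chr11:54910787-54962956. Its peaks in list order were 7, 10, 8, 6, 5, 5, 5, 5, 4 and 4, with the 4 h list the highest. The sites in intron 6 (chr11:54935952-54936803) and in the 5′ UTR part of exon 2 (chr11:54955609-54956542) were in all lists. The intron 1 site 1.5 kb from the TSS (chr11:54961121-54961758) was listed up to 12 h and not later. A site 2.43 kb upstream (chr11:54964984-54965676) was listed at 4 h and then at 24, 36, 48, 96 and 120 h. The site 9.46 kb upstream (chr11:54971944-54972854) was listed at 96 and 120 h only, while that 13 kb upstream (chr11:54975536-54976238) was in each list up to 72 h and then absent. Of all 12 lost regions of the 10 genes, 4 belonged to Tnip1.

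Distal regions were then followed from the 0 h list. At 120 h, 18 of 46 distal regions of the 10 genes were listed (39.1%, exact 95% binomial interval 25.1 to 54.6%, for counting error only), against 22.4% of all 44091. Regions of a gene share a locus and are not independent. Of the inhibitor genes 16 of 33 were listed (48.5%), and of the subunit genes 2 of 13 (15.4%), both of Nfkb1. At 48 h the values were 78.8% and 46.2%, with 70.6% over all distal regions, and at 12 h 87.9% and 84.6%, with 81%. By gene, 7 of 13 distal regions of Nfkbiz, 5 of 9 of Tnfaip3, 2 of 4 of Nfkbia, 2 of 7 of Tnip1 and 2 of 6 of Nfkb1 were listed at 120 h, and none of 2 for Nfkb2, 3 for Rel, 1 for Rela and 1 for Relb. The difference between subunit and inhibitor genes was not tested. Without Nfkbiz, a choice made after the values were seen, 11 of 33 distal regions were listed at 120 h (33.3%).

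**Figure D4:**
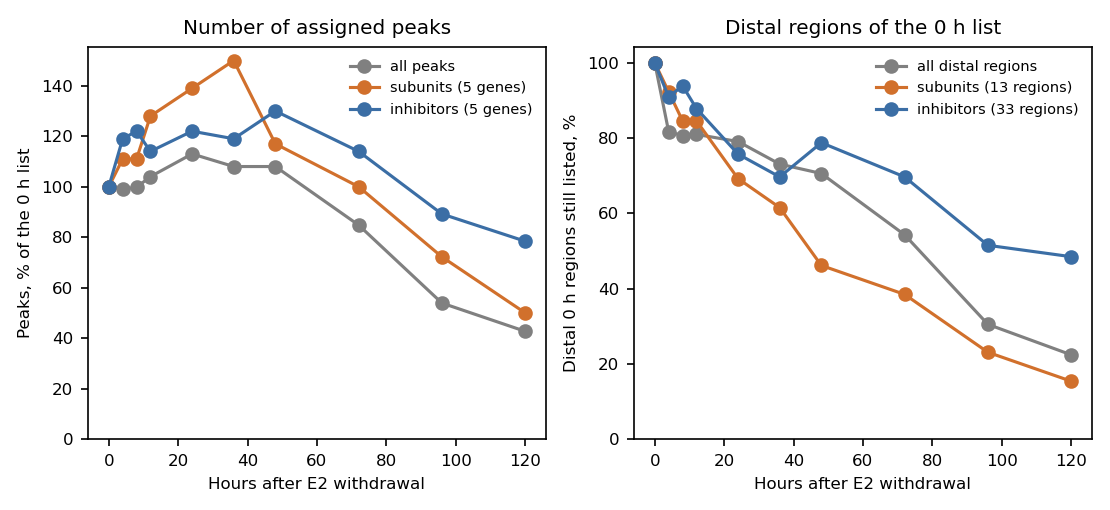
Left, peaks in each list as a percentage of the 0 h list for the subunit genes, the inhibitor genes and all genes; right, percentage of the distal regions of the 0 h list that later lists held, against hours after E2 withdrawal. The inhibitor genes end at 78.4% and 48.5%, the subunit genes at 50% and 15.4%, and the whole series at 42.7% and 22.4%.

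Sorted by course, 21 of the 103 regions (20.4%) were constant, meaning in all 10 lists, against 13.8% of all regions. Of these 17 belonged to inhibitor genes (27% of 63) and 4 to subunit genes (10% of 40). Regions missing at 0, 4 and 8 h and held by the lists of 72, 96 and 120 h, called gained, numbered 4 (3.88%, against 2.38%), 1 each for Rel, Nfkbia, Nfkbiz and Tnfaip3. The opposite course, called lost, was found for 12 (11.7%, against 12.5%). Transient regions, which 0, 4, 96 and 120 h lacked and at least 2 neighbouring lists between 12 and 72 h held, numbered 12 (11.7%, against 9.65%), of which Nfkb1, Nfkb2 and Nfkbiz had 3 each. In 1 list only stood 16 regions (15.5%, against 13.5%), and 25 (24.3%, against 33.3%) were missing from a list between lists that held them. The shares of lost, transient and single-list regions thus lay near those of the whole series.

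**Figure D5:**
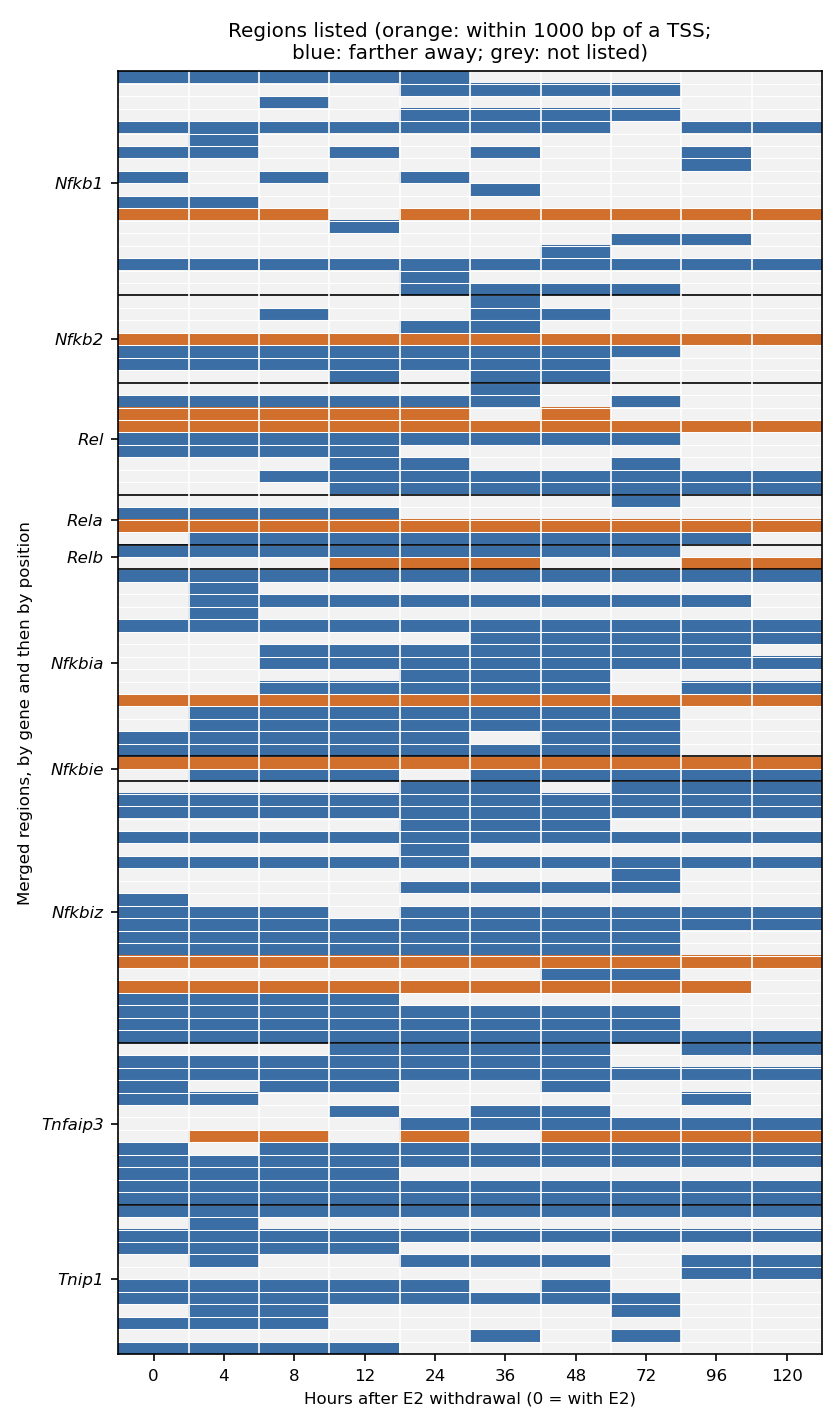
Presence of all 103 regions (rows, by gene and then by position) in the 10 lists (columns), with promoter regions in orange, others in blue and grey where a list lacks the region. Unbroken blue bars are most frequent in the Nfkbiz and Tnfaip3 blocks, and the Nfkb1 block has the most regions found in 1 list only, 7 of 18.

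The largest step lay between 72 and 96 h, when 23 of 60 regions (38.3%) were no longer listed and 9 were newly listed, against 43.3% of all regions no longer listed. From 0 to 4 h 4 of 55 (7.27%) went and 12 came, while of all 54346 regions 17.1% went and 8584 came. From 96 to 120 h 8 of 46 went (17.4%) and 0 came, while of all 29436 regions 27.4% went and 2056 came. Constant distal regions of the 10 genes had wide peaks, with a median of 582 bp over 150 peaks, and lost ones narrow peaks, with a median of 343 bp over 52; over all genes these medians were 535 and 403 bp. By annotation, 54 of the 103 regions (52.4%) were intergenic, against 41.6% of all, and 35 (34%) were intronic, against 41.6%. The median distance of distal regions from the TSS was 28.6 kb, against 23 kb over all.

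The other genes of the pathway are given as peaks at 0 h and at 120 h, by lists of function. Over all genes the median difference was -1 peak, and of genes with a peak at either time 71.4% had fewer and 7.82% more. A promoter peak was found at 0 h for 9525 and at 120 h for 8596 of all 19738 genes. Of the 4 other IkB family genes, Nfkbid had fewer peaks (4 and 2) and 3 had as many, and 3 had a promoter peak at both times. Of 18 kinase genes, 15 had fewer peaks at 120 h and 2 had more, with 90 and 46 peaks in sum (51.1%) and a promoter peak for 15 at 0 h and 15 at 120 h. Tab2, which links ubiquitin chains to the kinase Map3k7, had 19 peaks at 0 h and 6 at 120 h. Map3k7 had 9 and 2, Map3k1 9 and 4, Irak4 2 and 3, and Irak1 0 and 1. Of 22 adaptor and ubiquitin enzyme genes with a peak, 15 had fewer and 2 more (66 and 34 peaks, 51.5%), and 20 and 18 had a promoter peak. Otulin, a linear-chain deubiquitinase, had 6 and 1, Traf3 7 and 3, Traf5 6 and 2, Tirap 1 and 2, and Tradd 0 and 1.

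Of 23 receptor genes, 14 had fewer peaks and 4 more (90 and 59 peaks, 65.6%), and 15 and 12 had a promoter peak. Cd14, the lipopolysaccharide coreceptor, had 0 peaks in the first 3 lists, 4 in each list between 24 and 72 h, and 2 in the final one. Tnfrsf1a, a TNF receptor, had 2 with E2 and 4 in the final list, and Tlr13 had 3 and 4. In the other direction, Nod1 had 11 and 3, Il1r1 8 and 4, and Tlr3 4 and 0. Of 29 target genes with a peak, 15 had fewer and 5 more (118 and 86 peaks, 72.9%), and 19 and 16 had a promoter peak. Ccl2, a monocyte chemokine, had 3 and 6, Ier3 1 and 4, and Cd83 2 and 4. Zc3h12a, an RNase that degrades inflammatory mRNAs, had 19 and 9, Cd44 16 and 9, and Il6 10 and 3. A list of 9 genes for chromatin partners of NF-kB, among them the coactivator Ep300, had 19 and 12 peaks (63.2%), with fewer for 4 and a promoter peak for 8 and 9. In it Ep300 (3 and 1), Nfrkb (4 and 2) and Sirt1 (3 and 1) had the largest differences. Set beside the 42.7% of all peaks, each of these lists had a higher percentage, as did the 10 genes themselves. This was not particular to the pathway: the neutrophil (200%) and the macrophage and monocyte (55.4%) marker lists were also higher. The progenitor (32.7%), B and T cell (16.7%) and non-blood (0%) lists were lower. Promoter peaks of the whole series went from 10607 to 8968, and their part in these percentages was not tested.

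Genes whose 10 peak numbers were most like those of a member were found by the mean absolute difference per list, over 7752 or 7753 genes with at least 4 peaks in some list. Near to Nfkb1 were Spon1 (0.5 peaks per list) and 2310015A10Rik (0.7), and nearest to Nfkb2 Ppp2r5e, Rfxap and Spsb4 (0.4 each). Nearest to Rel were Dennd2c and Id1 (0.4 each) and 4930534H03Rik, and to Rela Gm8234 and Tmem106c (0.2 each) and Arfgef2. Nfkbiz was nearest to Ankrd44 (0.7), Fli1 (1) and Adgb (1.1), Tnfaip3 to Asprv1 and Klf2 (0.7 each) and Add3 (0.9), and Tnip1 to Bicd2 (0.4), Rragc and Tbc1d9b. Nearest to Nfkbia were Tgfbi (0.9), Lrig2 and Olfr1423 (1.1 each), which had 10, 10 and 11 peaks at 0 h where Nfkbia had 5. The likeness is a description of 10 small counts and no test.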

How the data were processed

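ATAC-seq peak lists of 20 samples, 2 per time point, were used. Per the labels, both replicates of a time share 1 list; how they were combined is not stated in the labels or headers. BWA, MACS2 2.0 and STAR 2.5 are named with no role, per the submitters' processing notes, which give mm9; per the file headers, HOMER annotated the peaks against mm10. The positions of the promoter peaks lie over RefSeq starts of GRCm38.p6, the sequence of mm10, so coordinates are given as mm10, counted from 1. The deposited score is 0 for all peaks and was not used.

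The deposited nearest gene of each peak was used. Overlap of 1 bp or more joined peaks of all lists into regions, which took annotation and TSS distance from the widest peak. Peaks up to 1000 bp from the TSS counted as promoter peaks. The members and all lists were chosen with earlier results of these data known. The text names all 10 members, up to 3 genes per list with the largest positive and negative differences of peak number between 120 and 0 h, and 3 genes of like pattern for members with at least 4 regions. One gene of like pattern to Nfkb1 is not reported here. Motifs were searched in the RefSeq promoter table. Shares carry an exact binomial interval where given. The merging and sorting steps were tested on simulated data. Alternatives covered list length, promoter distance, overlap, gene window and the lists compared. Scripts ran in Python 3.11.15 with pandas 2.3.3, scipy 1.17.1, numpy 2.4.6 and, for plots, matplotlib 3.10.9. No peak was assigned to Rnf31, Ptx3 or Bcl11b.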

Additional observations from a re-analysis of the deposited data

How the results depend on the processing

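With each list reduced to its 23620 widest peaks, the peaks of the 10 genes at 120 h were 165% of those at 0 h in place of 69.1%, 73.3% of the distal 0 h regions were listed at 120 h in place of 39.1% (35.5% over all genes), 0 regions were lost in place of 12 (6.69% of all regions in those lists), and 13 of 60 were constant (21.7%, against 15.1% of all) in place of 21 of 103 (20.4%, against 13.8%). In those lists 5 genes turned from fewer to more peaks at 120 h: Nfkb1 (1 more), Rel (1), Nfkbiz (3), Tnfaip3 (5) and Tnip1 (1). The reduced lists are equally long, so all peaks stayed at 100% there in place of 42.7%. The cut took peaks from the 0 h list and left the 120 h list whole. The share of all genes that turned this way was not counted, so the 5 genes are no result about this pathway. With the widest 50% of each list, Tnfaip3 had 1 peak more and Nfkbie had 1 fewer (-1), and the percentage was 71.4% (42.7% over all peaks). With 4 h in place of 0 h the percentage was 59.4% (43.2% over all peaks), and Nfkbia had 4 fewer (-4). With gained and lost set by the lists of 0, 4, 96 and 120 h alone, 10 regions were gained (9.71%, against 3.98% of all) and 24 lost (23.3%, against 27.6%). The peak percentage was 83.6% with 96 h for 120 h, 63.6% with peaks within 50000 bp and 72.5% without Nfkbiz. Over all peaks the values were 53.9%, 46.2% and 42.7% in the same order. The distal share was 43.5% with 96 h, 39.1% with an overlap of 50% and 33.3% without Nfkbiz. Over all distal regions or peaks it was 30.5%, 21.2% and 22.4%. Merging at 100 bp gave 4 gained (3.85%, against 2.38% of all), 12 lost (11.5%, against 12.5%) and 21 constant regions (20.2%, against 13.7%). Leaving out the 120 h list gave 5 gained (4.85%, against 3.74%) and 12 lost (11.7%, against 12.7%). A promoter peak at 120 h was found for 9 members, or 10 with a distance of 2500 bp. No paired analysis was possible because 1 list stands for both replicates of a time, and no replicate could be left out. Read depth is unknown, and its part in the shorter late lists was not tested.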
